A study of Mus musculus with 12 samples.

Results

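The carbonic anhydrases of mouse colonic epithelial organoids (colonoids) were followed here through 8 named genes, *Car1*, *Car2*, *Car4*, *Car7*, *Car8*, *Car9*, *Car12* and *Car13*. The rule took them by symbol from a table of 54532 genes, and all 8 were present. The filter for testing, 3 or more of the 12 libraries at 1 FPKM or above, was passed by 7 of them and by 12740 genes in all, and *Car7* did not pass. FPKM counts the fragments on a gene for each kilobase of its length, scaled for the size of the library, so levels can be set side by side between genes.

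Carbonic anhydrases interconvert carbon dioxide and water with bicarbonate and a proton. In the colon they supply the ions that apical chloride-bicarbonate and sodium-proton exchangers trade for luminal salt, and they help to set the pH at both faces of the epithelium. *Car1*, *Car2*, *Car7* and *Car13* encode cytosolic enzymes. *Car4* encodes an enzyme held on the outer cell surface by a lipid anchor, *Car9* and *Car12* encode enzymes that span the membrane with an outward-facing catalytic domain, and *Car8* encodes a related protein without the catalytic activity. *Car9* is a textbook target of hypoxia-inducible factor.

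Control colonoids came from *Hmox1* fl/fl mice, which carry the floxed allele of heme oxygenase-1, the enzyme that breaks down heme. Those labelled KO came from *Hmox1* fl/fl mice that also carried Vil1-Cre, a recombinase driven in crypt and villus epithelium, so their controls shared the floxed allele. Both were grown in L-WRN conditioned medium. They received vehicle or 200 μM hemin, a stable chloride of oxidized heme, over 24 hours, and each of the 4 groups had 3 libraries. Neither the labels nor the methods say whether the 3 libraries of a group came from separate mice, so the p-values measure the spread between these libraries, which may be technical.

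The targeted gene did not follow the KO label in every condition. *Hmox1* lay at 6.85 to 7.90 FPKM in vehicle-treated controls and at 2.11 to 3.14 in vehicle-treated libraries labelled KO, a difference of -1.27 in log2(FPKM + 1) (SE 0.12, limma adjusted p = 1.25e-05). With hemin it lay at 382 to 503 FPKM in controls and at 1271 to 1393 in the libraries labelled KO, which is higher by 1.53 (SE 0.12, limma adjusted p = 3.29e-06). Whole-gene values cannot be resolved to single exons, and every genotype comparison is therefore given as between libraries labelled KO and controls.

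Libraries held 11648801 to 25101868 fragments, and the hemin-treated controls were the smallest, at 11648801 to 11935604. All 6 epithelial markers (*Epcam*, *Cdh1*, *Krt8*, *Krt18*, *Krt19* and *Vil1*) were tested and their FPKM summed to 5541 to 9598 in every library. The erythroid list, of interest because red cells hold much *Car1* and *Car2*, had 0 of 7 genes above the filter and a summed level of at most 0.503 FPKM. Immune, tuft cell, and fibroblast and endothelial lists had 0 of 6, 0 of 5 and 0 of 5 genes above it, with sums of at most 0.416, 0.581 and 0.192 FPKM. In bulk RNA, fewer cells of a type and less RNA per cell cannot be told apart.

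The summed level of distal hindgut markers separated the genotype labels completely. *Hoxb13* was listed at 0 in all 6 control libraries and at 104 to 134 FPKM in the 6 labelled KO. *Hoxd13*, *Hoxd12*, *Hoxd11* and *Hoxd10* were also at 0 in every control, and *Hoxa13* was present in all. *Hoxd12* was at only 0 to 0.0550 FPKM in the hemin libraries labelled KO. The summed level of the 6 measured genes of this list was 6.91 to 8.22 FPKM in vehicle controls, 10.7 to 13.9 in hemin controls, and 195 to 208 in the libraries labelled KO. In these 12 libraries the genotype label and the level of these genes cannot be told apart, which applies to each genotype difference below.

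Cytosolic *Car1* supplied most of the family's FPKM, and its share depended on both hemin and genotype label. The 8 genes together reached 2809 ± 126 FPKM (SD, n = 3) in vehicle controls, 5369 ± 1270 in hemin controls, 2063 ± 28.0 in vehicle-treated libraries labelled KO and 3707 ± 230 in hemin-treated libraries labelled KO. *Car1* accounted for 74.8 to 76.8%, 90.0 to 93.2%, 63.1 to 64.4% and 76.1 to 77.6% of these sums, respectively. In each group *Car1* had the highest mean, followed by *Car2* and then *Car9*. Below them, *Car4* had rank 4 in vehicle-treated libraries labelled KO, rank 5 in the hemin-treated ones and rank 7 in both control groups. The ranges of neighbouring genes in this order did not overlap, except those of *Car7* and *Car12* in the hemin-treated libraries labelled KO.

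**Figure D1:**
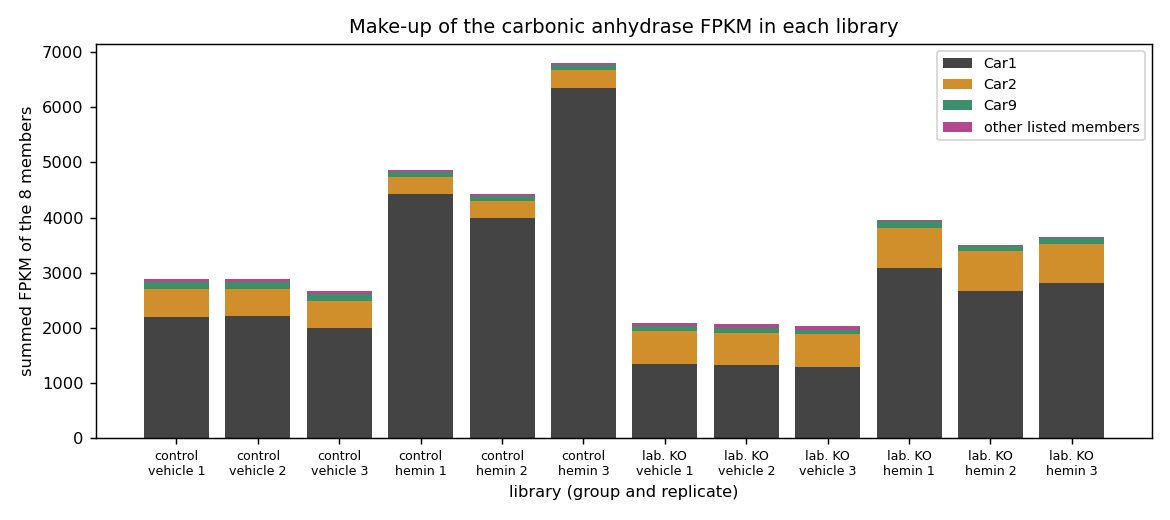
Stacked bars of the summed FPKM of the 8 members in each of the 12 libraries (x axis, group and replicate; lab. KO, labelled KO), split into Car1, Car2, Car9 and the other 5 members. The control hemin bars are the tallest, at 4427 to 6813 FPKM, and the vehicle bars labelled KO the shortest, at 2032 to 2087.

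Counts over the family were read against the share of all tested genes. A gene is called here when its limma p, adjusted over the 12740 genes by the Benjamini-Hochberg method, is under 0.05 and its difference in log2(FPKM + 1) exceeds 1 in size, and "rose" and "fell" are used for an adjusted p under 0.05 alone. Hemin in control colonoids gave 2 called members of 7, *Car1* higher and *Car8* lower, where 8.11% of all tested genes were called, 2.17% higher and 5.93% lower. Hemin in colonoids labelled KO gave 2 (*Car1* higher, *Car4* lower) where 12.9% of all were called, 4.87% higher and 8.07% lower. Between genotype labels, 3 were called with vehicle (*Car4* higher, *Car8* and *Car12* lower), against 6.8% of all (3.53% higher, 3.27% lower), and 4 with hemin (*Car2* and *Car4* higher, *Car8* and *Car12* lower), against 6.01% (3.1% higher, 2.91% lower). In both of these counts *Car8* and *Car12* passed the filter through controls, where they were high. The test of whether the hemin response differed between genotype labels, the interaction, called *Car4*, against 5.13% of all (2.57% positive, 2.56% negative).

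By the adjusted p alone, 6 of 7 members passed with hemin in controls, as did 49.9% of all genes, and 6 with hemin under the KO label, as did 60.4%. Between labels 7 passed with vehicle, against 34.2% of all, and 6 with hemin, against 34.4%, while 5 passed in the interaction, against 23.8%. After rescaling to TPM, *Car1*, *Car2* and *Car9* did not pass between labels with vehicle (adjusted p = 0.11, 0.138 and 0.0829), nor did *Car2*, *Car9*, *Car13* and *Car8* in the interaction (adjusted p = 0.0869, 0.0833, 0.213 and 0.795). With the short miRNA gene *Gm23935*, which made up 16.8 to 29.0% of the FPKM sum in 3 libraries, left out of the TPM sum, all of these passed except *Car8* in the interaction (adjusted p = 0.623). Under TPM with *Gm23935* in the sum, *Car2* and *Car9* also did not pass with hemin under the KO label (adjusted p = 0.796 and 0.454). Nor did *Car9* between the hemin-treated groups (adjusted p = 0.303). The libraries of the compared groups did not overlap for 7, 6, 7 and 6 members in the first 4 of these comparisons, where 52.4%, 74.4%, 57.5% and 40.9% of all genes did not overlap. The medians of the 7 members in these 5 comparisons were -0.62, 0.13, -0.69, -0.22 and 0.71 on the log2(FPKM + 1) scale, where the medians of all tested genes were -0.01, -0.00, 0.02, 0.04 and 0.02. The last median of the members is the value of *Car8*, whose sign there depended on the pseudocount. The comparisons share libraries and are not independent of one another.

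**Figure D2:**
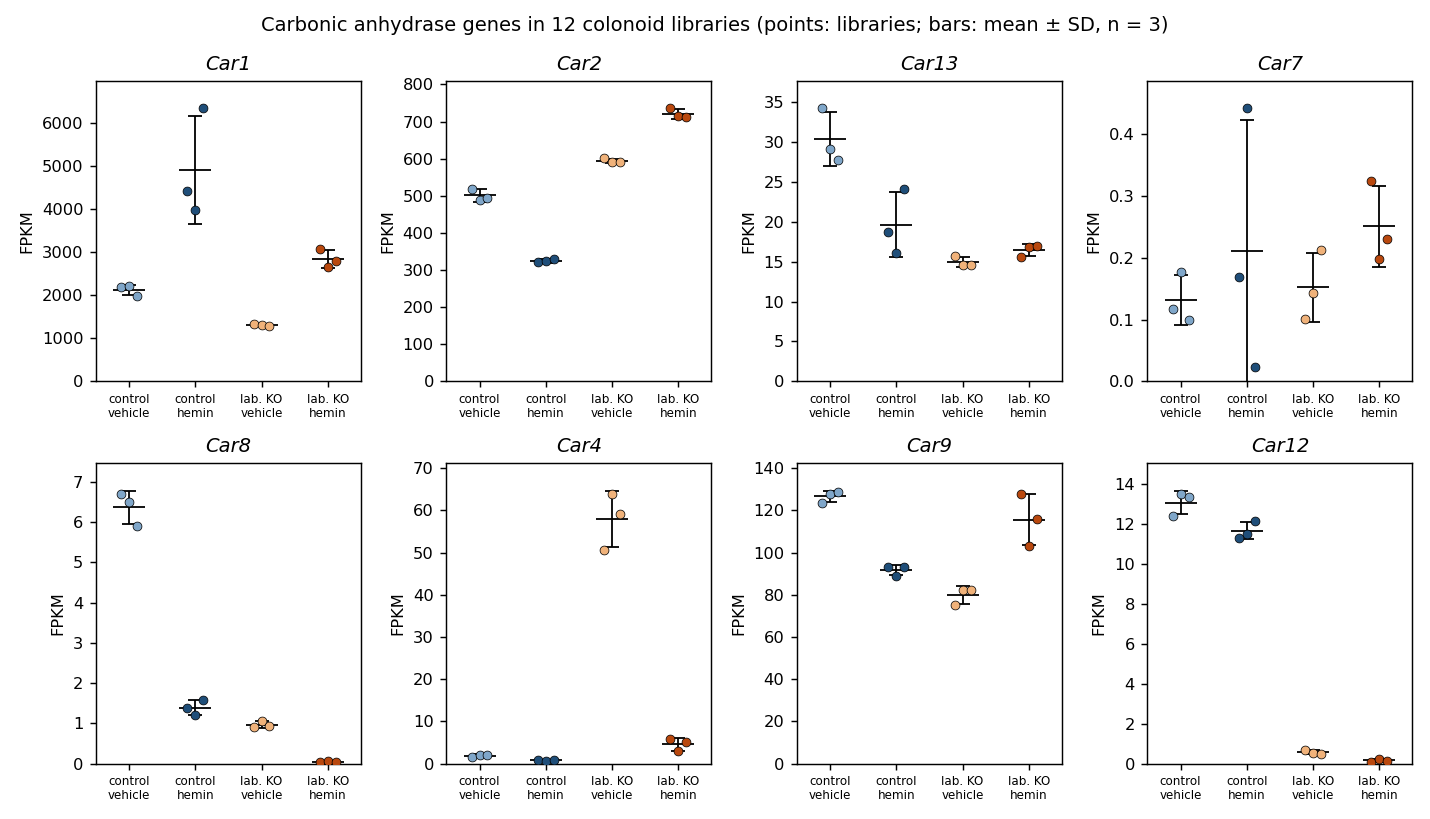
FPKM of each member in the 12 libraries (points), with the mean and SD of the 3 libraries of a group (bars); each y axis starts at 0 and lab. KO means labelled KO. Car4 stands out in the vehicle libraries labelled KO, at 50.7 to 64.0 FPKM, and Car12 in the 6 controls, at 11.3 to 13.5.

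*Car1* (chr3:14766216-14808368, minus strand, build GRCm38, also named mm10), a cytosolic enzyme and the most abundant member, rose with hemin under both genotype labels, 2.31-fold by mean FPKM in controls and 2.17-fold under the KO label. Vehicle controls held 2185, 2212 and 1991 FPKM and hemin controls 4420, 3983 and 6351. The vehicle libraries labelled KO held 1343, 1316 and 1282, and the hemin ones 3073, 2671 and 2803. No 2 groups overlapped, and replicate 3 of the hemin controls was well above the other 11 libraries. The hemin difference in log2(FPKM + 1) was 1.18 (SE 0.15, adjusted p = 6.06e-05) in controls and 1.11 (SE 0.15, adjusted p = 5.97e-05) in those labelled KO. The difference between these responses was -0.07, with a 95% interval from -0.52 to 0.39 (adjusted p = 0.864), so an unequal response within that interval was not detectable. *Car1* was lower in libraries labelled KO with vehicle (-0.69, adjusted p = 0.00339) and with hemin (-0.76, adjusted p = 0.00198), differences whose adjusted p-values were 0.0914 and 0.0716 without the filter on low genes and, with vehicle, 0.11 under TPM. Both calls with hemin lay close to the limit of 1: without replicate 3 of the hemin controls the control response was 0.98 (adjusted p = 4.79e-06), and after rescaling to TPM the responses were 0.99 and 0.77.

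*Car2* (chr3:14886273-14900770, plus strand), the fast cytosolic enzyme, moved in opposite directions with hemin under the 2 genotype labels. It fell from 519, 489 and 494 FPKM to 320, 325 and 330 in controls, a difference of -0.62 (SE 0.05, adjusted p = 3.45e-06). In the libraries labelled KO it went from 601, 590 and 592 FPKM to 735, 714 and 713, a difference of 0.28 (SE 0.05, adjusted p = 0.000786). The 4 groups did not overlap, with hemin controls lowest and hemin libraries labelled KO highest. The responses differed by 0.90 (SE 0.07, adjusted p = 1.33e-05), or by 0.75 under TPM (adjusted p = 0.0869). The fall in controls held under every alternative tried, whereas the small rise under the KO label did not: it was -0.06 after rescaling to TPM (adjusted p = 0.796) and 0.07 by limma-voom on fragments (adjusted p = 0.265). The genotype difference was 0.25 (adjusted p = 0.00339, or 0.138 under TPM) with vehicle and 1.15 (SE 0.05, adjusted p = 2.98e-08) with hemin, when *Car2* was 2.22-fold higher by mean FPKM. The ratio of *Car1* to *Car2* FPKM was 4.03 to 4.52 in vehicle controls, 12.3 to 19.2 in hemin controls, 2.17 to 2.24 in vehicle libraries labelled KO and 3.74 to 4.18 in hemin ones.

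*Car13* (chr3:14641727-14663002, plus strand), a cytosolic enzyme of much lower level, was highest in vehicle controls. These held 34.2, 29.1 and 27.8 FPKM against 18.7, 16.1 and 24.1 in hemin controls, 15.7, 14.6 and 14.6 in vehicle libraries labelled KO and 15.6, 16.8 and 17.0 in hemin ones. Vehicle controls lay above every other library, and the other 3 groups overlapped in part. *Car13* fell with hemin in controls by 0.62 on the log2(FPKM + 1) scale (adjusted p = 0.00181) and was lower under the KO label with vehicle (-0.97, SE 0.12, adjusted p = 0.000113). With hemin under the KO label the difference was 0.13, with a 95% interval from -0.15 to 0.40 (adjusted p = 0.394). The interaction was 0.75 (SE 0.18, adjusted p = 0.0109), and 0.62 under TPM (adjusted p = 0.213).

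*Car13*, *Car1*, *Car3* and *Car2* lie in this order within 259044 bases of chromosome 3 (chr3:14641727-14900770), a stretch that holds 6 annotated genes, 4 of them protein-coding. The 3 neighbours that were tested did not move as a block: with hemin in controls *Car1* rose while *Car2* and *Car13* fell. *Car3*, a cytosolic enzyme best known from muscle, reached at most 0.381 FPKM in any library. Fewer than 20 fragments fell on *Car7* (chr8:104534689-104550343), a cytosolic enzyme best known from brain, in each library, for 0.0235 to 0.442 FPKM, with ranges that overlapped except between vehicle controls (at most 0.177 FPKM) and hemin libraries labelled KO (at least 0.199).

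*Car8* (chr4:8143362-8239041, minus strand), which encodes the non-catalytic relative, fell with hemin and was lower under the KO label at each treatment. It stood at 6.70, 6.50 and 5.91 FPKM in vehicle controls and at 1.39, 1.21 and 1.58 in hemin controls. In libraries labelled KO it stood at 0.921, 1.07 and 0.925 FPKM with vehicle and at 0.0360, 0.0552 and 0.0362 with hemin, where the 3 libraries held 2, 5 and 2 fragments. No groups overlapped. The hemin difference in controls was -1.63 (SE 0.08, adjusted p = 9.55e-08), and the genotype difference was -1.90 (SE 0.08, adjusted p = 1.91e-08) with vehicle and -1.19 (SE 0.08, adjusted p = 8.69e-07) with hemin. At such low levels the added 1 FPKM compresses differences. By summed fragments, scaled for library size, *Car8* was 32.7-fold lower in hemin libraries labelled KO than in hemin controls (95% counting interval 16.9 to 72.7) and 25.1-fold lower than in vehicle libraries labelled KO (13.0 to 55.8). The interaction was 0.71 (adjusted p = 0.00121) with 1 FPKM added, -0.79 (adjusted p = 0.0237) with 0.1 added and -2.21 (adjusted p = 0.00199) by limma-voom, had an adjusted p of 0.795 under TPM, and no direction is given for it.

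Among the enzymes of the cell surface, *Car4* and *Car12* separated the genotype labels in opposite directions, and on the log2(FPKM + 1) scale by more than any other member. By limma-voom on fragments the hemin-treated groups differed more in *Car8* (-4.85) than in *Car4* (2.30), while *Car12* (-6.24) differed most. *Car4* has its gene at chr11:84957786-84966044 (plus strand) and *Car12* at chr9:66713686-66766845 (plus strand). The 250 bases before the RefSeq start of each are shown because these 2 genes had large genotype differences of opposite sign. Neither window overlapped an annotated exon, and both are from GRCm38.p6, plus strand, chr11:84957504-84957753 for *Car4* and chr9:66713436-66713685 for *Car12*.
Car4: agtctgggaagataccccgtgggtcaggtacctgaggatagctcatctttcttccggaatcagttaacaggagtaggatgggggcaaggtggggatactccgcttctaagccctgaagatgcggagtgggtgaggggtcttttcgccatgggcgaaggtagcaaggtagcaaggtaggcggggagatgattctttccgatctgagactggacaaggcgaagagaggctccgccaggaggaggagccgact
Car12: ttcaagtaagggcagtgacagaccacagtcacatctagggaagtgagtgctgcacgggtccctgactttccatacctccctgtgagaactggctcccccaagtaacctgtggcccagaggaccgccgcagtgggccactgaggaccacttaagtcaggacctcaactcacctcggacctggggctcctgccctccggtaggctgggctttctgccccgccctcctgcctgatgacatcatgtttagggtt
Searches of both strands for ACGTG, a form of the core of the hypoxia response element, and TGACNNNGC, the core of the antioxidant response element, found neither in these windows. Of all 32817 promoter windows of the same length, 16.6% held the first and 10.2% the second. Other forms of the hypoxia core were not searched.

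*Car4* was highest in the vehicle-treated libraries labelled KO. It measured 1.45, 2.02 and 2.15 FPKM in vehicle controls, 0.892, 0.688 and 0.784 in hemin controls, 50.7, 64.0 and 59.2 in vehicle libraries labelled KO and 5.72, 2.88 and 5.21 in hemin ones. None of the 4 groups overlapped. It was 31.0-fold higher by mean FPKM under the KO label with vehicle (log2(FPKM + 1) difference 4.36, SE 0.19, adjusted p = 1.87e-08) and 5.84-fold higher with hemin (1.61, SE 0.19, adjusted p = 5.4e-05). Hemin lowered it 12.6-fold under the KO label (-3.43, SE 0.19, adjusted p = 7.68e-08) and 2.38-fold in controls (-0.68, adjusted p = 0.0107), where it was called at -1.14 with 0.1 FPKM added. The interaction of -2.75 (SE 0.26, adjusted p = 3.67e-05) was called under all 10 alternatives that gave it and with each library left out, where it ran from -2.90 to -2.51. Of these alternatives, the median-of-ratios scaling had equal factors and the adjusted p alone only dropped a limit, so neither tested the call.

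*Car12* was far higher in controls than in libraries labelled KO. It measured 12.4, 13.5 and 13.3 FPKM with vehicle and 11.3, 11.5 and 12.2 with hemin in these, and 0.692, 0.533 and 0.485 with vehicle and 0.101, 0.246 and 0.128 with hemin under the KO label. Every control library was above every library labelled KO, and hemin libraries were below vehicle libraries within each label. All libraries labelled KO were under 1 FPKM, so *Car12* passed the filter only through the controls, where it was high. Its tests between labels, and its place in the counts of called members, carry that limit. The genotype difference was -3.17 (SE 0.08, adjusted p = 1.74e-10) with vehicle, or 22.9-fold lower by mean FPKM, and -3.45 (SE 0.08, adjusted p = 9.44e-11), or 73.7-fold lower, with hemin. The hemin libraries labelled KO held 11 to 44 fragments each. By summed fragments, scaled for library size, *Car12* was 70.6-fold lower there than in hemin controls (95% counting interval 55.6 to 91.0). The hemin difference was -0.15 in controls, with a 95% interval from -0.32 to 0.01 (adjusted p = 0.118; -0.24 by limma-voom, adjusted p = 0.0356, and -0.35 under TPM, adjusted p = 0.194), and -0.44 under the KO label (adjusted p = 0.000449), where mean FPKM was 3.60-fold lower. The interaction was -0.29 (adjusted p = 0.0772), but -1.24 (adjusted p = 0.00705) with 0.1 FPKM added and -1.77 (adjusted p = 0.00134) by limma-voom. The hemin response under the KO label was measured only below the filter level, so no result is drawn from this interaction. *Car4*, *Car8* and *Car12* were thus called in the same direction between genotype labels at both treatments, as were 401 of the 12740 genes (3.15%). Under the KO label *Car12* was below the filter level of 1 FPKM in every library and *Car8* reached at most 1.07 FPKM. Both passed the filter through controls.

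**Figure D3:**
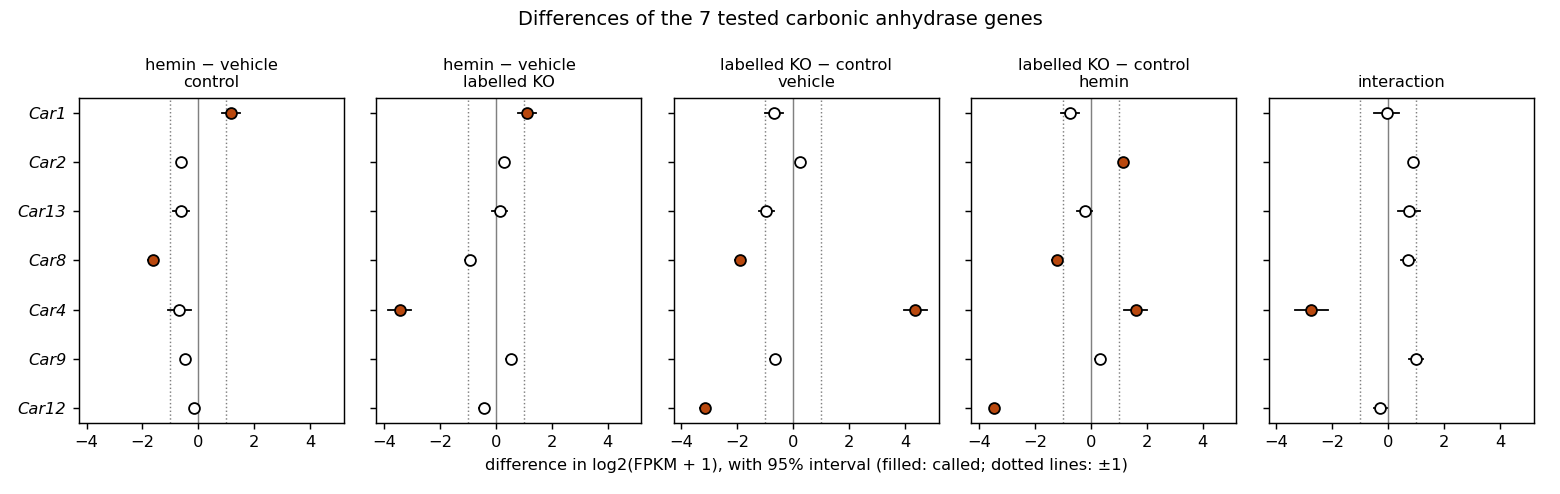
Difference in log2(FPKM + 1) of the 7 tested members in the 5 comparisons (points), with 95% intervals (lines); filled points are called, dotted lines mark -1 and 1, and the interaction is the hemin response of libraries labelled KO minus that of controls. Car4 lies farthest to the right with vehicle, at 4.36, and Car12 farthest to the left in both genotype comparisons, at -3.17 and -3.45.

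*Car9* (chr4:43506966-43513729, plus strand), the transmembrane enzyme known as a hypoxia marker, also responded to hemin in opposite directions. Of the 8 members, 4 had a RefSeq promoter window, and only that of *Car9* held ACGTG. The 30 bases up to the RefSeq start, chr4:43506996-43507025 on the plus strand of GRCm38.p6, show it in capitals as CACGT, the same letters read on the other strand. They lie within an annotated *Car9* exon of a longer transcript.
Car9: ctatttccgatgCACGTacagcccgtccac
The match is a description of the sequence, and binding was not measured. *Car9* stood at 124, 128 and 129 FPKM in vehicle controls and fell to 93.0, 89.0 and 93.2 with hemin (-0.46, SE 0.08, adjusted p = 0.000464). Under the KO label it rose from 75.1, 82.5 and 82.5 FPKM to 128, 103 and 116 (0.52, SE 0.08, adjusted p = 0.000135). Only vehicle controls and hemin libraries labelled KO overlapped. The responses differed by 0.98 (SE 0.11, adjusted p = 8.79e-05). *Car9* was lower under the KO label with vehicle (-0.66, adjusted p = 5.15e-05, or 0.0829 under TPM) and higher with hemin (0.33, adjusted p = 0.00658). The rise under the KO label was 0.19 (adjusted p = 0.454) after rescaling to TPM, 0.30 (adjusted p = 0.00573) with *Gm23935* left out of the TPM sum and 0.31 (adjusted p = 0.00239) by limma-voom. Under TPM the interaction had an adjusted p of 0.0833, and the difference with hemin had adjusted p-values of 0.303 under TPM and 0.057 when only the hemin-treated groups were fitted. An antisense gene, *Gm12454*, overlaps *Car9* and held up to 176 fragments in a library. The sources used here do not say whether counting used strand, so reads of the pair may be mixed.

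On the deposited scaling, *Car2* and *Car9* both fell with hemin in controls and rose with it under the KO label, a combination shown by 160 of the 12740 genes (1.26%). Neither rise passed under TPM (adjusted p = 0.796 and 0.454). On the deposited scaling *Car9* was also lower under the KO label with vehicle and higher with hemin, which held for 272 genes (2.14%).

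The hypoxia list, set beside *Car9*, held 23 tested genes, many of them glycolytic. With hemin in controls 19 of them fell and 1 rose, 5 of those that fell were called (5.93% of all genes were called lower), and the median was -0.70, against 49.9% of all genes past the adjusted p in either direction and a median of -0.01. *Ndrg1*, a stress-response gene, fell from 105 to 111 FPKM to 18.6 to 25.6 (-2.20, adjusted p = 1.25e-07). *Ankrd37* fell by 2.14 (adjusted p = 4.79e-07), *Egln3*, an oxygen-sensing prolyl hydroxylase, by 1.57 (adjusted p = 1.24e-06), and *Hk2*, which catalyses the first step of glycolysis, by 1.20 (adjusted p = 6.41e-06). With hemin under the KO label 6 rose and 9 fell, with a median of -0.02, where 60.4% of all genes passed in either direction. The 1 call, against 12.9% of all genes, was *P4ha1* of collagen hydroxylation (1.12, adjusted p = 4.91e-07).

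Between the hemin-treated groups, 16 of the 23 hypoxia genes were higher under the KO label at an adjusted p under 0.05, 4 of them were called and the median was 0.49, where 34.4% of all genes passed in either direction and 3.1% were called higher. *Egln3* was at 16.9 to 24.2 FPKM in hemin controls and at 114 to 141 in hemin libraries labelled KO (2.59, adjusted p = 2.52e-08). The mitophagy gene *Bnip3* was higher by 1.72 (adjusted p = 1.37e-05), the peptide hormone gene *Adm* by 1.27 (adjusted p = 2.08e-05) and the glycolytic *Pgk1* by 1.26 (adjusted p = 6.84e-07). With vehicle 4 were higher and 8 lower (median -0.18), where 34.2% of all genes passed, and *Ndrg1* was called (-1.39, adjusted p = 3.55e-06), where 6.8% of all genes were. In the interaction 16 were positive and 1 negative at an adjusted p under 0.05, against 23.8% of all genes past it in either direction, 6 were called, where 5.13% of all genes were, and the median was 0.73. The summed FPKM of the list was 2195 to 2294 in vehicle controls, 1229 to 1373 in hemin controls, 1861 to 1883 in vehicle libraries labelled KO and 1919 to 2355 in hemin ones. *Car12*, also known as a hypoxia-responsive gene, had hemin differences of -0.15 in controls and -0.44 under the KO label.

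**Figure D4:**
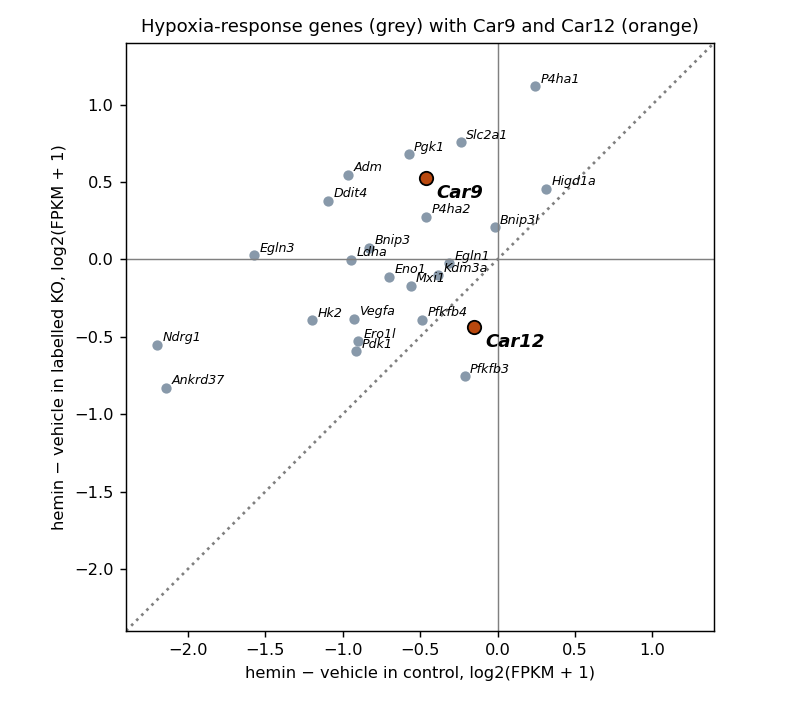
Hemin response, as a difference in log2(FPKM + 1), in controls (x axis) and in colonoids labelled KO (y axis) for the 23 genes of the hypoxia list (grey) and for Car9 and Car12 (orange); the dotted line marks equal responses, and both axes rest on separate libraries. Car9 lies at -0.46 and 0.52, left of 0 and above it, and Car12 at -0.15 and -0.44.

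Transporters that exchange bicarbonate, protons or chloride were listed as partners of the carbonic anhydrases. Of 27 genes, 16 were tested. With hemin in controls 3 were called, each lower, where 5.93% of all genes were called lower (median -0.29, or -0.21 with genes at 0 in a whole group set to 3 fragments per library). The sodium-bicarbonate cotransporter *Slc4a4* fell from 8.77 to 9.26 FPKM to 2.49 to 3.01 (-1.39, adjusted p = 1.25e-07), the related *Slc4a11* from 10.7 to 11.2 FPKM to 2.82 to 3.74 (adjusted p = 9.34e-08) and the lactate-proton exporter *Slc16a3* from 5.79 to 8.35 FPKM to 1.14 to 2.65 (-1.57, adjusted p = 0.000193). Under the KO label hemin gave 2 calls higher and 3 lower (median -0.23), where 4.87% and 8.07% of all genes were called higher and lower. The bicarbonate-permeable channel gene *Best2* went from 13.7 to 15.4 FPKM to 1.06 to 1.51 (-2.78, adjusted p = 1.19e-09), and the chloride and bicarbonate channel gene *Cftr* from 10.4 to 11.8 FPKM to 4.08 to 4.51 (-1.22, adjusted p = 2.46e-05). *Atp12a*, the colonic proton-potassium pump, rose by 1.19 (adjusted p = 5.37e-07) and the scaffold gene *Slc9a3r1* by 1.17 (adjusted p = 6.65e-05).

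Between genotype labels with vehicle, 3 transport genes were called higher and 1 lower (median -0.18), against 3.53% and 3.27% of all genes. *Atp12a* was at 61.2 to 64.4 FPKM under the KO label and at most 0.217 in controls (adjusted p = 3.79e-12). *Best2* was higher by 3.69 (adjusted p = 1.57e-10) and *Slc26a3*, the apical chloride-bicarbonate exchanger, by 1.32 (adjusted p = 7.44e-06), while *Slc4a4* was lower by a difference of -2.60 (adjusted p = 5.82e-10). With hemin 2 were called in each direction (median 0.03), against 3.1% of all genes higher and 2.91% lower. *Atp12a* and *Best2* were listed at 0 in all 3 hemin controls and were at least 2270-fold and 11.3-fold higher under the KO label, against a floor of 3 fragments per library. *Cftr* (-1.45, adjusted p = 1.47e-05) and *Slc4a4* (-1.41, adjusted p = 8.88e-08) were lower. The interaction called 4 higher and 3 lower (median 0.35), against 2.57% and 2.56% of all genes. These counts include *Atp12a* and *Best2*, which were under 0.25 FPKM in every control and passed the filter only through libraries labelled KO, so their hemin response in controls could not be measured and no interaction is given for them. *Slc4a4*, at 0.380 to 0.673 FPKM in the libraries labelled KO, was also called and passed only through controls, and no interaction is given for it. The p-values of these genes between labels carry the same limit. The others were *Slc26a3* (-1.71, adjusted p = 4.65e-05) and *Cftr* (-1.28, adjusted p = 0.000993), both negative, and *Slc4a11* (1.11, adjusted p = 3.67e-05) and *Slc16a3* (1.07, adjusted p = 0.035), both positive. *Slc26a3* went from 14.3 to 15.0 FPKM to 25.5 to 37.4 with hemin in controls and from 37.0 to 38.5 to 20.5 to 24.6 under the KO label.

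**Figure D5:**
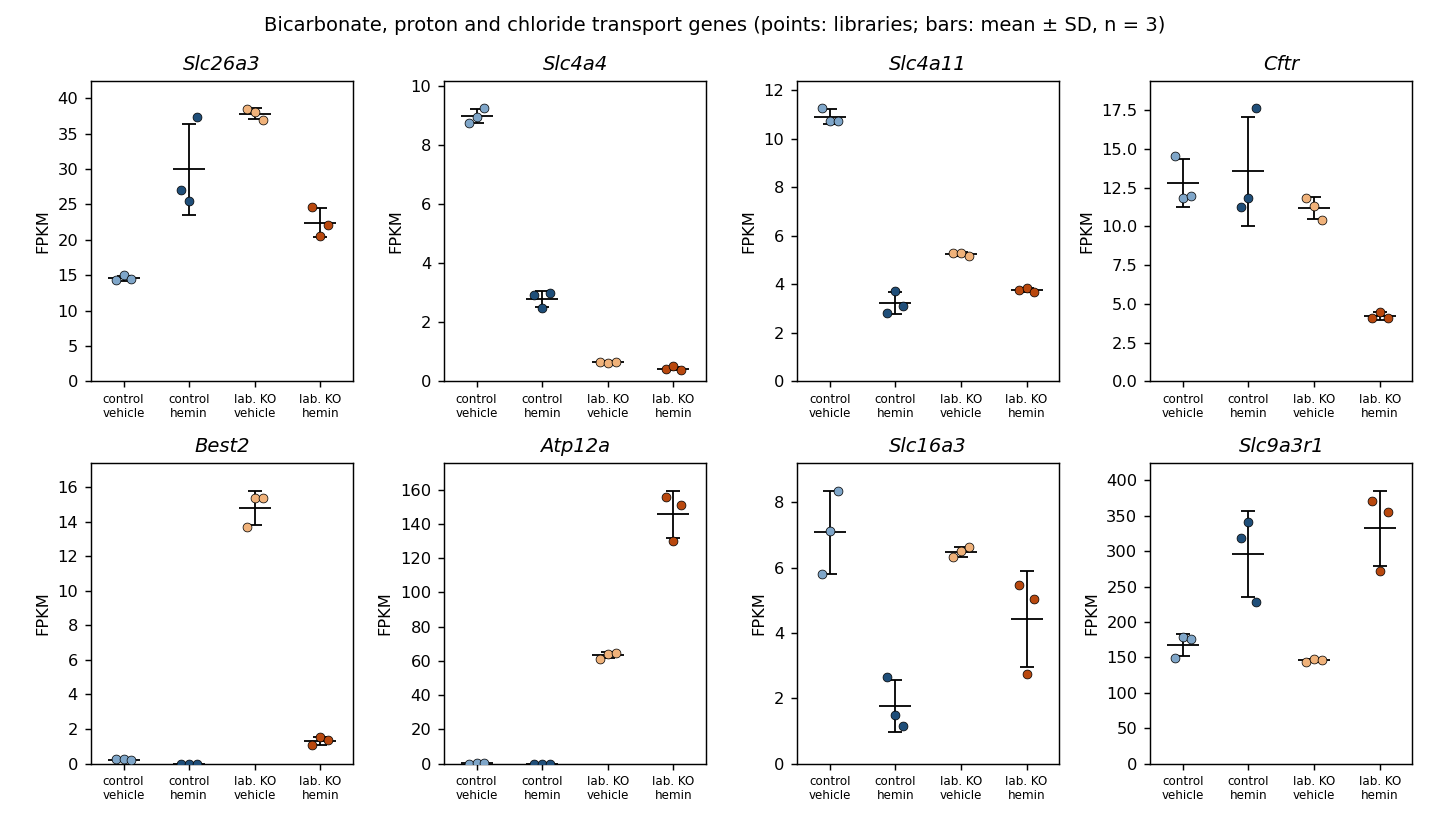
FPKM of 8 called transport genes in the 12 libraries (points), with the mean and SD of the 3 libraries of a group (bars); each y axis starts at 0 and lab. KO means labelled KO. Atp12a and Best2 are at or near 0 in all 6 controls, and Slc4a4 is at 0.380 to 0.673 FPKM in all 6 libraries labelled KO.

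Markers of epithelial cell types differed between the groups in which the carbonic anhydrases differed, and their part in the differences above was not tested. For the 8 goblet cell genes, all tested, the summed FPKM was 1705 to 1950 in vehicle controls, 1053 to 1412 in hemin controls, 2397 to 2526 in vehicle libraries labelled KO and 594 to 654 in hemin ones. With vehicle these genes moved unequally between labels, 3 being higher and 3 lower under the KO label at an adjusted p under 0.05: *Spink4* (2.10, adjusted p = 1.09e-07) and *Agr2* (1.14, adjusted p = 1.26e-05) were called higher, while the mucin gene *Muc2* (-0.50, adjusted p = 0.00463), *Fcgbp* (-0.69, adjusted p = 0.00138) and *Zg16* (-0.39, adjusted p = 0.012) were lower. Hemin gave 3 goblet calls lower in controls and 7 lower under the KO label, where 5.93% and 8.07% of all genes were called lower. The 8 absorptive colonocyte genes summed to 2619 to 2757, 3236 to 4251, 3027 to 3188 and 4993 to 6004 FPKM in the same order and also moved unequally: the water channel gene *Aqp8* was at 8.50 to 47.6 FPKM in controls and 408 to 778 under the KO label, and the peptide hormone gene *Guca2a* at 447 to 582 and 19.0 to 86.9. *Lypd8* held the largest part of each sum, with group means of 1470, 2397, 2277 and 4386 FPKM in that order. Between hemin-treated groups 1 of the 8 genes was called higher and 4 lower (median -0.99), against 3.1% and 2.91% of all genes. Hemin under the KO label gave 1 call higher and 2 lower (median -0.58), against 4.87% and 8.07% of all genes. The 6 stem and cycling crypt genes summed to 91.0 to 102, 31.1 to 38.7, 133 to 137 and 46.2 to 56.0 FPKM, and the 5 enteroendocrine genes, 4 of them tested, to at most 35.3 in controls and 383 to 550 under the KO label.

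The other 8 carbonic anhydrase genes of the table were all under the filter, with no library above 0.827 FPKM. They are *Car3*, the mitochondrial *Car5a* and *Car5b*, the secreted *Car6*, *Car10* and *Car11* without catalytic activity, and the membrane-bound *Car14* and *Car15*. A limma-voom fit of the 20117 genes with at least 10 fragments in all, added after seeing the data, included 6 genes that the main test left out, *Car7* among them. In it *Car5b* was higher under the KO label with hemin (10, 4 and 0 fragments in controls against 35, 76 and 44, log2 difference 3.52, SE 0.70, adjusted p = 0.00142). *Car14* was lower in the same comparison (-1.89, adjusted p = 0.0226), with 24, 11 and 13 fragments against 14, 3 and 7. *Car3* fell with hemin in controls (-3.53, adjusted p = 0.00135), from 18, 10 and 10 fragments to 0, 2 and 0, and under the KO label (-2.59, adjusted p = 0.00602).

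For each tested member, the 3 tested genes most like it were those with the highest Pearson r of log2(FPKM + 1) over the 12 libraries. As the libraries form 4 groups, such an r mostly describes the 4 group means and carries no p. *Car1* was followed most closely by *Tspan8*, *Pon2* and *Zwint* (r = 0.99 each), *Car2* by *Dap*, *Pmaip1* (0.99 each) and *Fam43a* (0.98), and *Car13* by *Acsl3*, *Mospd2* (0.98 each) and *Nsdhl* (0.97). *Car8* was followed by *Jag1*, *Kremen2* and *Nedd4l* (0.99 each), and *Car4* by *Slc11a2*, an iron and proton cotransporter, *Trpv6*, an apical calcium channel, and *Tcf7l1* (0.99 each). *Car12* was followed by *Fam126a*, *Prkca* and *Hoxb7* (1.00 each). *Car9* had the least close neighbours, *Areg*, *Zfand2a* (0.96 each) and *Lmtk2* (0.95).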

How the data were processed

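Poly-A RNA was sequenced from 12 colonoid libraries in 4 groups of 3, taken from the sample titles; the label of hemin replicate 3 under KO writes its genotype in another form. The authors deposited FPKM for 54532 genes. The submitters' processing notes name fastp, HISAT2 2.0.5, featureCounts 1.5.0-p3 and mm10; strandedness is not given in the sources used here. Multiplied by gene length, all values (100%, tolerance 0.01) came out as a whole number of fragments, 11648801 to 25101868 per library. Counting intervals (95%) cover counting error only. The deposited values were already scaled between libraries: their median-of-ratios factors were all equal.

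Differences were tested with limma 3.58.1 in R 4.3.3 on log2(FPKM + 1), 2-sided, with a mean for each group, moderation with an intensity trend and Benjamini-Hochberg adjustment over 12740 genes with FPKM of at least 1 in at least 3 libraries. All 4 groups shared 1 estimate of the spread. Scripts were tested on simulated data. Lists were the 8 members, the other family genes, transport, hypoxia and cell type markers; *Aldoa*, whose symbol occurs more than once, was left out, and *Prac1* was not analysed here. Up to 4 called genes per list and comparison were named, by size among those whose groups did not overlap. In the transport interaction *Slc4a4*, *Slc4a11* and *Slc16a3* were named in addition. *Aqp8*, *Guca2a*, *Lypd8*, *Muc2*, *Fcgbp*, *Zg16*, *Hoxb13* and *Gm23935* were named after their values were seen. The members and lists were chosen with earlier results of these data known. Promoter sequences are from RefSeq on GRCm38.p6, with matches for 4 of the 8 members. Alternative settings changed the pseudocount (0.1), the filter (none, or a mean FPKM of at least 5), the scaling (TPM, median of ratios), the moderation (no trend), the design (a block for the replicate number, or the compared groups by themselves), the call rule (no limit on fold) and the model (limma-voom on fragments), or left out each library in turn. TPM without *Gm23935* in the sum and limma-voom on low genes were added after seeing the data.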

Additional observations from a re-analysis of the deposited data

Results flagged for a closer look

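For 5 of the 7 tested carbonic anhydrase genes, the hemin response differed between colonoids labelled KO and controls by the interaction test (limma on log2(FPKM + 1), adjusted p under 0.05), where 23.8% of all tested genes did. *Car2* had an interaction of 0.90 (SE 0.07, adjusted p = 1.33e-05) and *Car9* of 0.98 (SE 0.11, adjusted p = 8.79e-05), each with a fall in controls and, on the deposited scaling, a rise under the KO label. Neither rise passed under TPM (adjusted p = 0.796 and 0.454). *Car13* had one of 0.75 (SE 0.18, adjusted p = 0.0109), with a fall in controls and a response under the KO label that did not pass the test. *Car4* had one of -2.75 (SE 0.26, adjusted p = 3.67e-05), with a larger fall under the KO label, where it started from 58.0 FPKM against 1.87 in vehicle controls. *Car8* had one of 0.71 (SE 0.11, adjusted p = 0.00121), whose sign depends on the pseudocount. After rescaling to TPM the interaction no longer passed for *Car2* (adjusted p = 0.0869), *Car9* (0.0833), *Car13* (0.213) and *Car8* (0.795), and that of *Car4* did.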

How the results depend on the processing

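Called members numbered 2 with hemin in controls, 2 with hemin under the KO label, 3 and 4 between genotype labels with vehicle and hemin, and 1 in the interaction. A pseudocount of 0.1 gave 4 with hemin under the KO label, 2 in the interaction, 3 with hemin in controls (adding *Car4*, -1.14, also called there by TPM and limma-voom) and 4 between labels with vehicle (adding *Car13*, -1.01). A mean FPKM of at least 5 left out *Car8* and gave 1 with hemin in controls, and 2 and 3 between labels with vehicle and hemin. Limma-voom gave 3 in the interaction and with hemin under each label, and TPM gave 2 and 3 with hemin in controls and under the KO label. The *Car1* call with hemin under the KO label was lost by limma-voom (0.90), TPM (0.77) and TPM without *Gm23935* (0.89). The adjusted p alone gave 6, 6, 7 and 5 in the comparisons other than that between hemin-treated groups, where it gave 6. With each library left out the counts ran from 1 to 2, 2 to 2, 3 to 4, 4 to 4 and 1 to 2. The lower count in controls came without hemin control replicate 3, when *Car1* fell just under the limit. The 2 calls in the interaction came from *Car9*, without vehicle control replicate 1, vehicle replicate 2 or 3 labelled KO, or hemin replicate 2 labelled KO. By the adjusted p alone, the *Car12* interaction passed without hemin replicate 2 labelled KO (-0.34, adjusted p = 0.0442), and *Car13* between hemin-treated groups without hemin control replicate 2 (-0.35, adjusted p = 0.0339).

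The sign changed for the *Car8* interaction (-0.79 with a pseudocount of 0.1 and -2.21 by limma-voom), for *Car2* with hemin under the KO label (-0.062 by TPM), for *Car13* in the same comparison (-0.20 by TPM, -0.088 by TPM without *Gm23935* and -0.072 by limma-voom) and for the *Car1* interaction without hemin control replicate 3 (0.13). The median difference of all genes was -0.01 with hemin in controls, -0.00 with hemin under the KO label, 0.02 between labels with vehicle and 0.02 in the interaction. It was -0.19, -0.31, 0.16 and -0.11 under TPM, -0.12, -0.21, 0.08 and -0.09 under TPM without *Gm23935*, and -0.09, -0.22, 0.09 and -0.11 by limma-voom, and member values under these settings are to be read against it. The share of all calls that were higher, in the hemin comparisons and the interaction, was 26.8%, 37.6% and 50.2%, against 15.5%, 14.7% and 34.0% under TPM, 19.4%, 20.2% and 36.5% under TPM without *Gm23935*, and 23.4%, 20.9% and 32.4% by limma-voom. *Gm23935*, a miRNA gene of 57 bases, made up 16.8%, 29.0% and 21.0% of the FPKM sum in 3 libraries, and leaving it out of the sum removed only part of the TPM shift. Without the filter the genotype differences of *Car1* had adjusted p-values of 0.0914 and 0.0716.

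The replicate numbers showed no sign of pairing the libraries: deviations of same-numbered libraries correlated at -0.04 on average (-0.33 to 0.18 over 18 pairs). Those of differently numbered libraries correlated at 0.02 (-0.39 to 0.34 over 36 pairs). As the deviations within a group sum to 0, these averages are tied to each other, and a shared mouse or batch was not tested. With the replicate block the counts of called members were again 2, 2, 3, 4 and 1, and calls over all genes with hemin went from 766 to 761 between labels.

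*Car8* in hemin libraries labelled KO rests on 9 fragments in all, *Car12* in these libraries on 11 to 44 each and *Car7* on 1 to 19 per library. Groups of 3 limit every interval.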
